A study of Mus musculus with 10 samples.

Results

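A set of 10 genes of the G1 phase of the cell cycle were followed in CD8+ T cells that had been cultured with or without the thiol N-acetylcysteine (NAC). They are the D-type cyclin genes Ccnd2 and Ccnd3, the E-type cyclin genes Ccne1 and Ccne2, the kinase genes Cdk2, Cdk4 and Cdk6, the kinase inhibitor genes Cdkn1b and Cdkn2c, and the transcription factor gene E2f1. Each was found by its symbol in the deposited expression table, and all 10 of 10 were present among 21898 genes. Ccnd2 and Cdkn1b lie on mouse chromosome 6, Ccne2 and Cdkn2c on chromosome 4, Cdk2 and Cdk4 on chromosome 10, Ccnd3 on chromosome 17, Ccne1 on chromosome 7, Cdk6 on chromosome 5 and E2f1 on chromosome 2. The NAC group was 5 libraries of wild-type (WT) CD8+ T cells from mouse spleen, kept for 5 days in medium with 10 mM NAC, a cysteine donor for glutathione synthesis. The control group was 5 libraries of the same cells kept for 5 days in normal medium without an agent. The labels give no strain, sex or age, no activating stimulus and no number of animals, so each p-value here rests on library-to-library spread, part or all of which may be technical.

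A T cell that leaves quiescence makes D-type cyclins, which bind CDK4 and CDK6 and start the phosphorylation of the retinoblastoma protein. Phosphorylation frees E2F factors such as E2F1, which switch on genes of DNA synthesis and the E-type cyclins, and cyclin E with CDK2 then drives entry into S phase. The inhibitor p27, the product of Cdkn1b, blocks cyclin E-CDK2 and is kept high in resting lymphocytes, while p18, the product of Cdkn2c, blocks CDK4 and CDK6. In lymphocytes interleukin 2 signalling induces Ccnd2 and lowers p27.

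RefSeq promoters of the build GRCm38.p6 were at hand for 8 of the 10 genes, with 10 start sites between them; Ccnd2 and Ccne2 had none. The 250 bases before each start were searched on both strands for 5 kinds of motif, none of whose matches overlapped in the promoters shown. These were the E-box CACGTG bound by MYC, an E2F site (TTTCCCGC, TTTGGCGC or TTTGGCGG), a FOXO site (GTAAACA), a STAT site (TTCNNNGAA) and the CCAAT box. The promoters of Cdk4, Cdk2 and Cdkn1b are shown because they hold the most matches among the members and belong to a kinase of each G1 complex and to the inhibitor. Matches are in capitals, and each sequence runs 5′ to 3′ on the strand of its gene. That of Cdk4 is chr10:127063285-127063534 on the plus strand, that of Cdk2 is chr10:128705052-128705301 on the minus strand, and that of Cdkn1b is chr6:134920151-134920400 on the plus strand.
Cdk4: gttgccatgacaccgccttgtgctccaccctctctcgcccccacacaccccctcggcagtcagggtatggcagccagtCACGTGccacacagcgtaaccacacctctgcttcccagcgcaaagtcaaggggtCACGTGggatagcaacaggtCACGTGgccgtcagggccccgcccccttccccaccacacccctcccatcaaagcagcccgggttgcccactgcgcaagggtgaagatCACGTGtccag
Cdk2: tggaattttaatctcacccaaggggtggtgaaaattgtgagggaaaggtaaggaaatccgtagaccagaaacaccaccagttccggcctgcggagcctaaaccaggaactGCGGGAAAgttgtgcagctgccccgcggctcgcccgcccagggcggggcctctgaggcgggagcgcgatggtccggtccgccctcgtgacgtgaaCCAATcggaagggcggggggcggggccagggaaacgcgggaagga
Cdkn1b: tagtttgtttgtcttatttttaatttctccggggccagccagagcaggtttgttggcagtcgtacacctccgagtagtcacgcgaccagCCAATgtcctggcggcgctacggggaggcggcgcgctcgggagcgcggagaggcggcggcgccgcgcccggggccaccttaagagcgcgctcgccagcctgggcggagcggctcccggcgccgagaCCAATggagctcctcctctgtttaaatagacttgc

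The Cdk4 window holds 4 E-boxes, which lie 172, 118, 98 and 11 bases before the start. Among all 32851 promoters searched, 6.02% hold at least 1 E-box, and 7 promoters (0.0213%) hold 4 or more. Among the members, only Cdk6 holds another, a single E-box 220 bases before its start. The Cdk2 window holds a CCAAT box and, 140 bases before its start, the only E2F match among the 10 member windows. An E2F match was found in 1.73% of all promoters. For E2f1 only 1 start site was searched (window chr2:154569427-154569676, minus strand). Whether it is the gene's main start was not checked, and the window may lie within the gene. The lack of a match in that window is therefore no result about the main E2f1 promoter. Other start sites of the members were not searched. The Cdkn1b window holds a pair of CCAAT boxes, a motif found in 33.8% of all promoters. A FOXO site (3.17% of all promoters) was found only in 1 of the start sites of Ccnd3, and no member window held a STAT site (7.02%). A match is a string of letters and not a measured binding site. Myc, the gene of the E-box factor, was at 382 ± 21.9 CPM with NAC and 387 ± 18.1 CPM in control (SD, n = 5 per group; log2 difference -0.02, 95% confidence interval -0.18 to 0.14).

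Libraries held 13.3 to 17.71 M reads assigned to genes. Libraries 1 and 2 of both groups stand apart from libraries 3 to 5: principal component 1 parts them and holds 50.8% of the variance, and NAC and control part on principal component 2 with 31.8%. Markers of CD4 T cells (Cd4, Zbtb7b, Foxp3 and Cd40lg, 4 of 4 tested) summed to 604 to 659 CPM with NAC and 625 to 643 CPM in control in libraries 1 and 2. In libraries 3 to 5 they summed to 31.2 to 34.9 CPM with NAC and 20.4 to 23.1 CPM in control. A list of Cd8a, Cd8b1 and the CD3 genes Cd3d, Cd3e and Cd3g, which mark all T cells, summed to 1265 to 1352 CPM with NAC and 877 to 885 CPM in control in libraries 1 and 2, and to 1979 to 2105 CPM with NAC and 1521 to 1561 CPM in control in libraries 3 to 5. Cd8a and Cd8b1 alone summed to 386 and 398 CPM in NAC 1 and 2 and 285 and 297 CPM in control 1 and 2, and to 1018 to 1080 CPM with NAC and 778 to 804 CPM in control in libraries 3 to 5. Cd4 alone was at 486 and 521 CPM in NAC 1 and 2 and 467 and 465 CPM in control 1 and 2, which goes against the CD8+ label, and at most at 2.77 CPM in libraries 3 to 5 of either group. Myeloid markers stayed at 6.73 to 15.9 CPM, and B cell markers were at 10.7 to 13.4 CPM with NAC and 2.32 to 8.82 CPM in control; Cd79b alone was at 9.08 to 11.8 CPM with NAC and 1.53 to 7.78 CPM in control. Dendritic, NK and erythroid markers summed to at most 3.27 CPM in any library, with Siglech at 0 throughout. The part of the markers in the results was not tested. Each member's result is therefore given over all libraries and within libraries 1 and 2 and libraries 3 to 5; the set values are contrasts of a single model whose terms are the 4 combinations of group and set.

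Per length, Cdk4 and Ccnd2 were the most abundant members. On the authors' FPKM scale, which divides reads by gene length and library total, Cdk4 was at 90.1 ± 7.5 with NAC and 100.2 ± 2.48 in control, and Ccnd2 at 55.6 ± 17.2 with NAC and 89.6 ± 2.06 in control (SD, n = 5 per group). Ccne1 followed with 30.4 ± 5.78 FPKM under NAC and 35.2 ± 2.23 FPKM in control, and Cdk2 with 19.9 ± 1.08 FPKM under NAC and 20.9 ± 0.556 FPKM in control. These 4 means had the same order in both groups, but in NAC 1 Ccne1 lay above Ccnd2, in NAC 1 and 2 Ccnd3 lay above Cdk2, and in NAC 4 Cdkn1b did. The other 6 lay close together in control, with means from 11.9 FPKM (E2f1) to 14.5 FPKM (Cdk6), with SDs of 1.37 to 5.34 FPKM, and no neighbours in that order differed beyond their spread. With NAC the same genes spread from 6.61 ± 0.668 FPKM (Ccne2) to 16.9 ± 3.79 FPKM (Cdkn1b). Ccne2 was the lowest of the 10 in every NAC library and ranked from 6 to 9 in the control libraries. Cdkn1b ranked from 4 to 7 in the NAC libraries and from 6 to 10 in the control libraries.

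**Figure D1:**
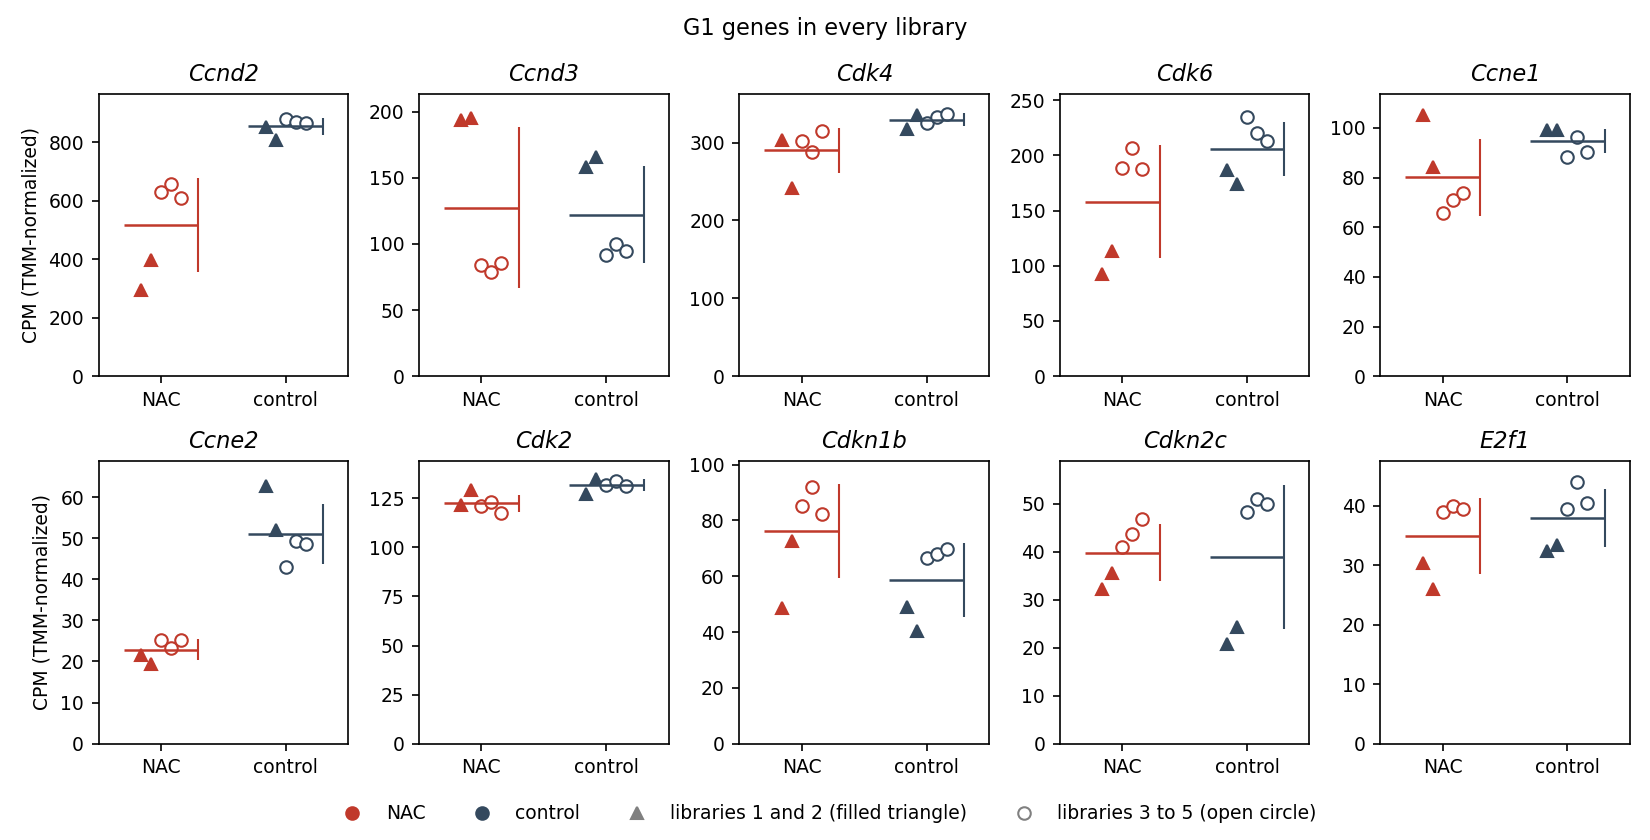
TMM-normalized CPM of the 10 G1 genes in each library, NAC left of control, with the group mean (horizontal line) and 1 SD (vertical line, n = 5); filled triangles are libraries 1 and 2, open circles libraries 3 to 5. Ccne2, Ccnd2 and Cdk4 show no overlap between the groups, while Ccnd3 and Cdkn2c part by library number.

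Over all libraries, the cyclin genes Ccne2 and Ccnd2 fell with NAC and none of the other 8 members passed. Ccne2, whose product activates CDK2, was 2.23-fold lower, and Ccnd2, the most abundant D-type cyclin, 1.65-fold lower. In edgeR's quasi-likelihood test with Benjamini-Hochberg adjustment over 11403 genes, 2 of 10 members were lower at adjusted p under 0.05, where 11.6% of all tested genes were called in either direction and 4.88% were called lower. No member was called higher in that test, at an unadjusted p under 0.05, by DESeq2 or by limma-voom, against 6.69% of all genes called higher by edgeR. The members' median log2 change was -0.15, beside 0.01 over all tested genes. The groups did not overlap for 3 of 10 members, beside 16.4% of all tested genes. With the library number as a block the same 2 members were called lower, where 19.8% of all tested genes were called and 8.22% called lower. With the library set as a term 5 members were called (Cdkn1b higher, and Ccnd2, Ccne1, Ccne2 and Cdk6 lower), where 36.4% of all tested genes were. In bulk RNA a smaller share of cycling cells and less RNA per cell cannot be told apart.

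Ccnd2 was at 295, 397, 630, 655 and 610 CPM in NAC libraries 1 to 5, and at 853, 806, 878, 868 and 864 CPM in control libraries 1 to 5. Every NAC library lay below every control library, and NAC 1 and NAC 2 were the lowest of all. Its log2 change was -0.72 ± 0.20 (SE; adjusted p = 0.0401). It came to -1.26 ± 0.11 for libraries 1 and 2 (adjusted p = 7.8e-07) and -0.46 ± 0.09 for libraries 3 to 5 (adjusted p = 0.00188). The control values differed by little between the library sets, while the NAC values did not. The call over all libraries ended without NAC 2 (adjusted p = 0.0891), NAC 5 (0.0544) or any 1 of the 5 control libraries (0.0708 to 0.0797), and with no filter on low counts (0.0504); over all 20 alternatives the adjusted p ran from 0.00204 to 0.0891. Exons of Ccnd2 share 3.91% and 3.95% of their bases with a pair of antisense genes.

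Ccnd3, the other D-type cyclin gene expressed here, had the opposite pattern in libraries 1 and 2. It was at 193, 195, 84.2, 78.8 and 85.4 CPM in NAC libraries 1 to 5, and at 158, 165, 91.8, 100 and 94.9 CPM in control libraries 1 to 5. NAC lay above control in libraries 1 and 2 and below it in libraries 3 to 5, and in each group libraries 1 and 2 were the highest. The log2 change was 0.06 ± 0.31 over all libraries (adjusted p = 0.916), 0.26 ± 0.07 for libraries 1 and 2 (adjusted p = 0.00489) and -0.21 ± 0.06 for libraries 3 to 5 (adjusted p = 0.0176). The call in libraries 3 to 5 ended without NAC 4 (adjusted p = 0.0905), control 4 (0.0922) or control 5 (0.0562), and with library size alone (0.0556) or upper quartile factors (0.0529). That in libraries 1 and 2 ended when these were fitted alone (0.125). Exons of Ccnd3 share 4.11% of their bases with Bysl on the opposite strand, which was lower with NAC (log2 change -0.44, adjusted p = 0.0225). The third D-type cyclin gene, Ccnd1, had too few reads to be tested, with 0.563 ± 0.244 CPM under NAC and 0.144 ± 0.166 CPM in control.

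The catalytic partners of the D-type cyclins differed from each other. Cdk6 was at 92.5, 114, 189, 207 and 188 CPM in NAC libraries 1 to 5, and at 187, 174, 234, 220 and 213 CPM in control libraries 1 to 5. NAC lay below control within each library set, but NAC 3 to 5 lay just above control 1 and 2. Its log2 change was -0.38 ± 0.21 over all libraries (adjusted p = 0.251), -0.81 ± 0.10 for libraries 1 and 2 (adjusted p = 1.1e-05) and -0.19 ± 0.08 for libraries 3 to 5 (adjusted p = 0.0737). With the library set as a term Cdk6 was called lower (-0.44, adjusted p = 0.0123), and in libraries 3 to 5 it was called lower when these were fitted alone (7.8e-05) and without NAC 1 (0.000175) or NAC 2 (0.000187). Cdk4 differed by less: its 5 NAC libraries lay between 241 and 315 CPM and its 5 control libraries between 318 and 337 CPM, with no overlap. The log2 change of Cdk4 was -0.19 ± 0.08 over all libraries (adjusted p = 0.169) and did not pass. It was -0.26 ± 0.09 for libraries 1 and 2 (adjusted p = 0.0251) and -0.14 ± 0.07 for libraries 3 to 5 (adjusted p = 0.189). The call in libraries 1 and 2 ended without NAC 2 (adjusted p = 0.0907), control 1 (0.0543) or control 2 (0.142), with upper quartile factors (0.175) and when they were fitted alone (0.149). Cdk4 was called lower in libraries 3 to 5 when these were fitted alone (0.000717) and without NAC 1 (0.00152) or NAC 2 (0.00162). Of the exon bases of Cdk4, 19.7% are shared with Tspan31 on the opposite strand, which had a log2 change of -0.06 (adjusted p = 0.721).

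**Figure D2:**
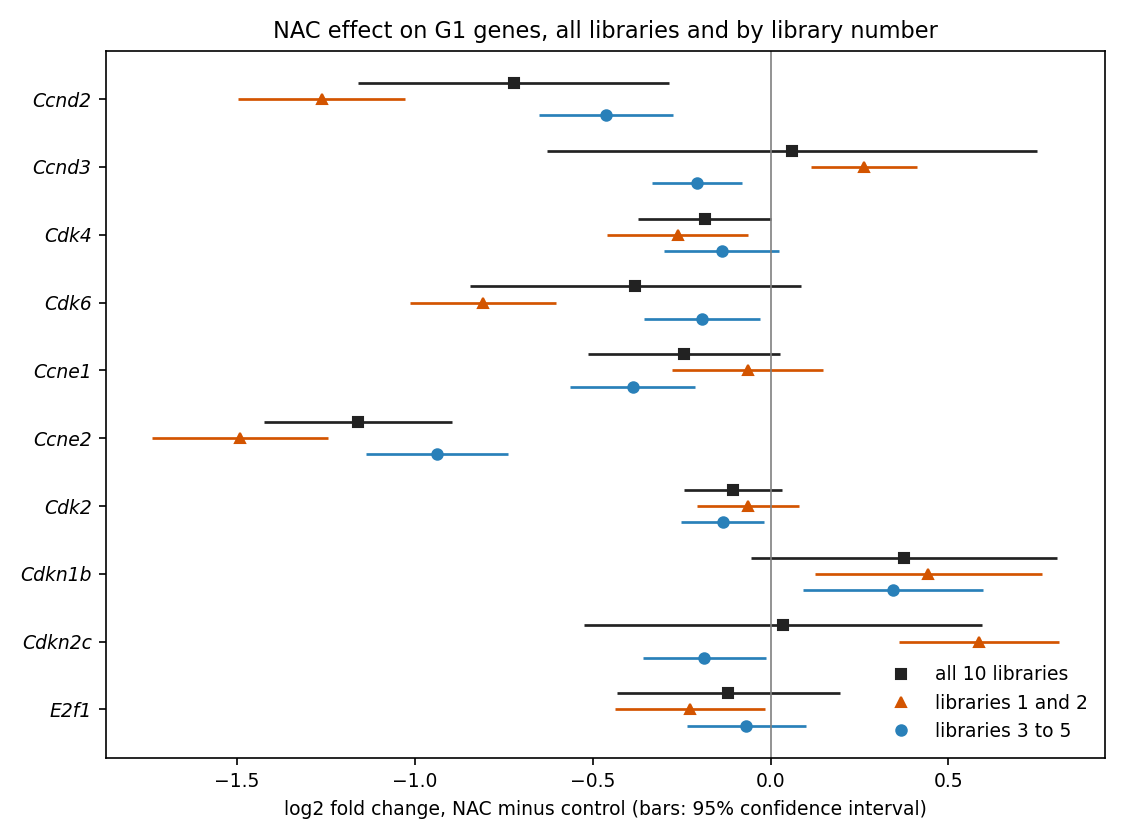
Log2 fold change of each G1 gene, NAC minus control, with its 95% confidence interval, over all 10 libraries (black squares), in libraries 1 and 2 (orange triangles) and in libraries 3 to 5 (blue circles). The whole intervals of Ccne2 and Ccnd2 lie below 0 in all 3 estimates. The point estimates of Ccne1, Cdk2, Cdk4, Cdk6 and E2f1 also lie below 0 in all 3, and those of Cdkn1b above 0. Those of Ccnd3 and Cdkn2c lie on opposite sides of 0 in the library sets.

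Of the E-type cyclin genes, Ccne2 had the largest change among the members. It was at 21.5, 19.3, 25.2, 23.2 and 25.2 CPM in NAC libraries 1 to 5, and at 62.7, 52, 42.9, 49.4 and 48.5 CPM in control libraries 1 to 5. The highest NAC library lay well below the lowest control library. The log2 change was -1.16 ± 0.12 (SE; adjusted p = 0.000751). It came to -1.49 ± 0.11 for libraries 1 and 2 (adjusted p = 3.1e-07) and -0.94 ± 0.09 for libraries 3 to 5 (adjusted p = 1.6e-05). Ccne2 was called in all 20 alternatives, with an adjusted p of at most 0.00345. Ints8 on the opposite strand shares 17.4% of the exon bases of Ccne2; its log2 change was -0.33 (adjusted p = 0.143), or -0.49 for the first pair of libraries and -0.19 for libraries 3 to 5.

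Ccne1 was the more abundant E-type cyclin gene and changed less. It was at 105, 84.1, 65.8, 71 and 74 CPM in NAC libraries 1 to 5, and at 99, 99.2, 88.5, 96.5 and 90.4 CPM in control libraries 1 to 5. NAC 1 was the highest of all, and NAC 2 the highest of the rest of its group. Each of NAC 2 to 5 lay below every control library. The log2 change was -0.24 ± 0.12 over all libraries (adjusted p = 0.206), -0.06 ± 0.10 for libraries 1 and 2 (adjusted p = 0.591) and -0.39 ± 0.08 for libraries 3 to 5 (adjusted p = 0.0036). In libraries 1 and 2 it was called lower without NAC 1 (-0.23, adjusted p = 0.00668). Without NAC 1 it was also called lower over all libraries (-0.36, adjusted p = 0.024), as it was with the library set as a term (-0.26, adjusted p = 0.0356). Cdk2, the kinase of both E-type cyclins, lay between 117 and 129 CPM with NAC and between 127 and 135 CPM in control, and only NAC 2 overlapped with control. Its log2 change of -0.11 ± 0.06 (adjusted p = 0.284; 95% confidence interval -0.24 to 0.03) did not pass over all libraries or within either set (adjusted p = 0.429 for libraries 1 and 2, 0.0783 for libraries 3 to 5). It was called lower in libraries 3 to 5 when these were fitted alone (-0.14, adjusted p = 0.00486) and without NAC 1 (0.0066) or NAC 2 (0.00705).

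The inhibitor genes did not pass over all libraries. Cdkn1b, which encodes p27, was at 48.7, 72.7, 85.2, 91.8 and 82.2 CPM in NAC libraries 1 to 5, and at 48.9, 40.3, 66.6, 67.8 and 69.8 CPM in control libraries 1 to 5. NAC lay above control in libraries 3 to 5 and in library 2, while NAC 1 and control 1 were almost equal. The log2 change was 0.38 ± 0.20 over all libraries (adjusted p = 0.222), 0.44 ± 0.15 for libraries 1 and 2 (adjusted p = 0.0192) and 0.34 ± 0.12 for libraries 3 to 5 (adjusted p = 0.0419), and a term for the library set called it higher (0.38, adjusted p = 0.0138). The call in libraries 1 and 2 ended without NAC 2 (log2 change 0.13, adjusted p = 0.243) or control 2 (0.31, 0.166), when these libraries were fitted alone (0.113) and with no filter (0.0636). The call in libraries 3 to 5 ended without any 1 of their 6 libraries (adjusted p 0.0716 to 0.144) and with no filter (0.0845), but stood when they were fitted alone (1.7e-07).

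Cdkn2c, which encodes p18, separated by library set. It was at 32.2, 35.5, 41, 43.6 and 46.8 CPM in NAC libraries 1 to 5, and at 20.8, 24.4, 48.3, 51 and 50 CPM in control libraries 1 to 5. The NAC libraries all lay between the control values of the 2 sets, above control 1 and 2 and below control 3 to 5. The log2 change was 0.03 ± 0.25 over all libraries (adjusted p = 0.942), 0.59 ± 0.10 for libraries 1 and 2 (adjusted p = 0.000336) and -0.19 ± 0.08 for libraries 3 to 5 (adjusted p = 0.1). It was called lower in libraries 3 to 5 when these were fitted alone (adjusted p = 0.00931) and without NAC 1 (0.017) or NAC 2 (0.0178). E2f1, whose product activates the cyclin E genes, was at 25.9 to 39.9 CPM with NAC and 32.5 to 43.9 CPM in control. Its groups overlapped, and its log2 change of -0.12 ± 0.14 (adjusted p = 0.609; 95% confidence interval -0.43 to 0.19) did not pass over all libraries or within either set (adjusted p = 0.0601 for libraries 1 and 2, 0.543 for libraries 3 to 5). In libraries 1 and 2 it was called lower with DESeq2 size factors (-0.24, adjusted p = 0.0433), with no filter (-0.28, 0.0369) and without NAC 1 (-0.34, 0.00626).

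Counted within the sets, 3 members rose (Ccnd3, Cdkn1b, Cdkn2c) and 4 fell (Ccnd2, Ccne2, Cdk4, Cdk6) in libraries 1 and 2, where 60.5% of all tested genes were called, 32.2% higher and 28.3% lower. In libraries 3 to 5, Cdkn1b rose and Ccnd2, Ccnd3, Ccne1 and Ccne2 fell, where 29% of all tested genes were called, 15% higher and 14% lower. NAC and control did not overlap for 7 members in libraries 1 and 2 (74.1% of all tested genes) and for 9 members in libraries 3 to 5 (54.6%), all but E2f1. Fitted alone, libraries 1 and 2 gave 4 called members, beside 43.8% of all genes tested in that fit, and libraries 3 to 5 gave 9, beside 48.7%. The number in libraries 3 to 5 was also 9 without NAC 1 or NAC 2, and 3 without NAC 4, control 4 or control 5. The number of all genes called there moved as well, from 3312 to 5373 without NAC 1 and 5363 without NAC 2. It was 2216 without NAC 4, 2189 without control 4 and 2206 without control 5. The difference of the NAC effect between the sets was itself called for 5 members (Ccnd2, Ccnd3, Ccne2, Cdk6 and Cdkn2c), beside 41.9% of all tested genes. For Ccnd2 the effect in libraries 1 and 2 minus that in libraries 3 to 5 was -0.80 ± 0.14 on the log2 scale (SE; adjusted p = 0.000658), for Cdk6 -0.62 ± 0.12 (0.00157) and for Ccne2 -0.55 ± 0.15 (0.00916). It was 0.77 ± 0.13 for Cdkn2c (adjusted p = 0.000614) and 0.47 ± 0.09 for Ccnd3 (0.00128). The call for Ccne2 ended without control 1 (adjusted p = 0.0579). The difference was also called for Ccne1 with upper quartile factors (0.38, adjusted p = 0.0306) and without NAC 2 (0.48, 7.9e-06), and for Cdk4 (-0.29, 0.000289) and Cdkn1b (0.37, 0.00364) without NAC 1. Apart from NAC, libraries 1 and 2 did not overlap with libraries 3 to 5 in control for 8 members, all but Cdk2 and Cdk4, beside 74.2% of all tested genes. The same held for 8 members with NAC (68.3% of all tested genes). Taking both groups together, the 4 libraries numbered 1 and 2 lay wholly apart from the 6 numbered 3 to 5 for 4 members (26% of all tested genes): Ccnd3 was higher in them, and Cdk6, Cdkn2c and E2f1 were lower. In libraries 1 and 2 the sums of CD4 T cell markers overlapped between NAC and control, but Foxp3 (log2 change -1.61, adjusted p = 0.0006) and Cd40lg (-0.81, adjusted p = 2.8e-05) were lower with NAC, and Cd4 did not pass (0.11, adjusted p = 0.345). In libraries 3 to 5 the sums did not overlap and were higher with NAC. The part of these markers in the set values was not tested.

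Related genes were also set against each other within each library, a comparison that does not depend on scaling between libraries. The FPKM ratio of Ccne2 to Ccne1 was 0.156, 0.174, 0.292, 0.249 and 0.259 in NAC libraries 1 to 5, and 0.482, 0.4, 0.369, 0.39 and 0.408 in control libraries 1 to 5. Every NAC library lay below every control library. The ratio of Ccnd2 to Ccnd3 was 1.42, 1.9, 6.98, 7.76 and 6.66 in NAC libraries 1 to 5, and 5.02, 4.55, 8.93, 8.1 and 8.49 in control libraries 1 to 5. NAC lay below control within each set, and the gap was widest in libraries 1 and 2. The ratio of Cdk6 to Cdk4 was 0.0707 and 0.109 in NAC 1 and 2, and 0.136 and 0.121 in control 1 and 2. In libraries 3 to 5 the Cdk6 to Cdk4 ratio overlapped, at 0.138 to 0.167 with NAC and 0.147 to 0.168 in control. These ratios were chosen after the values were seen and were not tested.

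**Figure D3:**
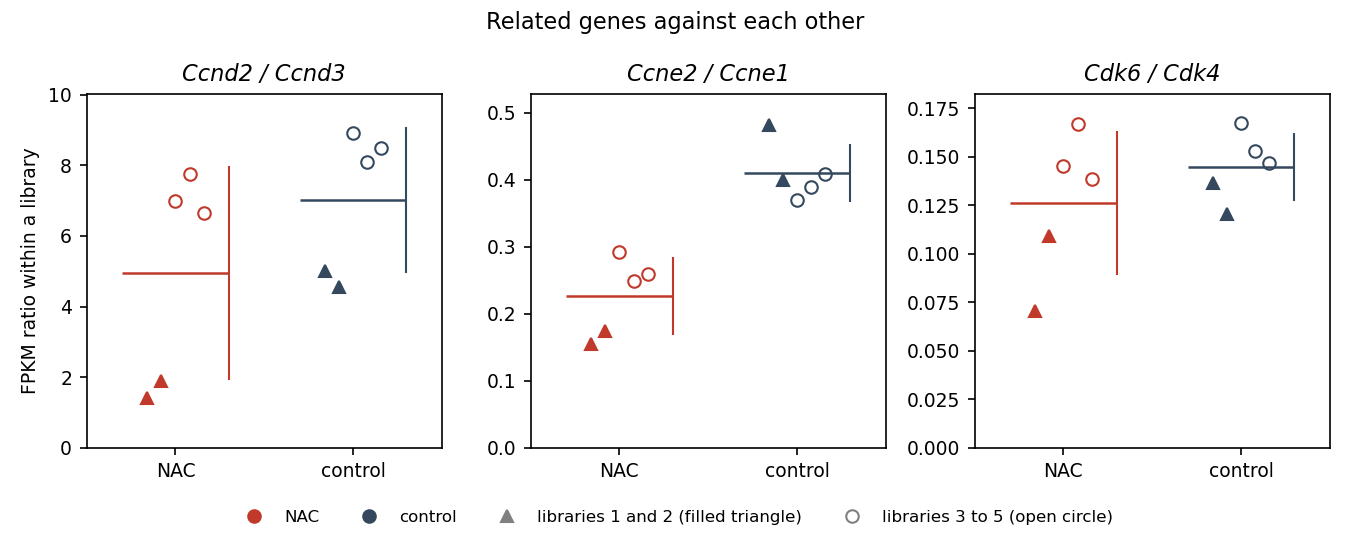
Ratio of FPKM values within each library for Ccnd2 over Ccnd3, Ccne2 over Ccne1 and Cdk6 over Cdk4, NAC left of control, with group means (horizontal lines) and 1 SD (vertical lines, n = 5); filled triangles are libraries 1 and 2, open circles libraries 3 to 5. The Ccne2 to Ccne1 ratio of NAC libraries is at most 0.292, below the lowest control library at 0.369.

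The genes whose pattern over the 10 libraries came closest were found by the root mean square difference of log2 CPM, each gene centred on its own mean. For Ccne2 they were Hk2 (0.13), Rbm19 (0.18) and Sowahc (0.18). For Ccnd2 they were Tob2 (0.09), Dgcr8 (0.11) and Slc29a3 (0.12), and for Cdk4 Dnajb1 (0.04), Txndc9 (0.04) and Mrpl3 (0.05). Among the members the closest pair was Cdk2 with Cdk4 (0.13), and Ccnd2 with Cdk6 differed by 0.20. The widest pair was Ccnd2 with Ccnd3 (0.88).

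Over all libraries 1 further inhibitor gene and 1 pocket protein gene rose, beside 6.69% of all tested genes called higher. Of 5 further CDK inhibitor genes 2 were tested, and Cdkn2d, which encodes the CDK4 and CDK6 inhibitor p19, was at 52.5 ± 14.9 CPM with NAC and 34.7 ± 2.53 CPM in control (SD, n = 5 per group; log2 change 0.60 ± 0.17, adjusted p = 0.0457). The library number as a block gave it 0.56 (adjusted p = 0.0536), limma-voom 0.061, and its call also ended without NAC 1, NAC 2 or any 1 control library (0.0596 to 0.105) and with no filter (0.0509). Its log2 change was 1.05 for libraries 1 and 2. For libraries 3 to 5 it was 0.23 and did not pass (adjusted p = 0.0508), and the difference was called (adjusted p = 0.000321). Cdkn1a, which encodes p21, was the other tested gene and did not pass over all libraries (log2 change -0.27, adjusted p = 0.628). It fell in libraries 3 to 5 (-0.70, adjusted p = 2.5e-06) but not in libraries 1 and 2 (0.037, adjusted p = 0.641). The difference between the sets was 0.74 (adjusted p = 3.7e-05), and the library set as a term called Cdkn1a lower (-0.40, adjusted p = 0.0224). Of 3 pocket protein genes, Rbl2 (p130, the E2F repressor of resting cells) was higher, with 50.3 ± 11.2 CPM under NAC and 34.3 ± 4.13 CPM in control (log2 change 0.55 ± 0.15, adjusted p = 0.0378). With the block Rbl2 was no longer called (adjusted p = 0.0598) and Rb1 was (0.36, adjusted p = 0.0388). The call of Rbl2 also ended without any 1 library other than NAC 1 (adjusted p 0.0535 to 0.0851) and with no filter (0.0509). Rbl2 was at 0.77 for libraries 1 and 2 (adjusted p = 0.00403). For libraries 3 to 5 it was at 0.41 and did not pass (adjusted p = 0.0715). The median log2 change of the 3 genes was 0.38.

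Among 9 other genes of E2F and DP factors, E2f3, E2f7 and E2f8 fell, beside 4.88% of all tested genes called lower. The other 6 did not pass, and the median log2 change of the 9 was -0.25. No gene of the list was called higher over all libraries by edgeR, DESeq2 or limma-voom, or was higher there at an unadjusted p under 0.05. By set, E2f2 was called higher in libraries 1 and 2 (log2 change 0.44, edgeR adjusted p = 0.000671), where 32.2% of all tested genes were. It did not pass in libraries 3 to 5 (-0.11, adjusted p = 0.254), and the difference was called (0.55, adjusted p = 0.00178). E2f7, a repressor of E2F targets that is itself induced in S phase, was at 7.68 ± 2.23 CPM with NAC and 16.5 ± 4.61 CPM in control (log2 change -1.10 ± 0.24, adjusted p = 0.018). It was nearly the same for libraries 1 and 2 (-1.11) and for libraries 3 to 5 (-1.08). E2f8, its paralog, was at 39.9 ± 6.4 CPM with NAC and 58.9 ± 7.96 CPM in control (-0.56 ± 0.13, adjusted p = 0.0225), with -0.54 for libraries 1 and 2 and -0.58 for libraries 3 to 5, and its call ended without control 1 (0.0572) or control 2 (0.058).

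Of 12 genes that activate or turn over G1 kinases 11 were tested. Cul1, Skp2 and Cdc25a fell, beside 4.88% of all tested genes called lower, and the median log2 change was -0.12. Skp2, which marks p27 for degradation, was at 17.8 ± 1.62 CPM with NAC and 25.4 ± 4.81 CPM in control (log2 change -0.51 ± 0.14, adjusted p = 0.0374), and Cul1, the scaffold of the same ubiquitin ligase, at 119 ± 10.4 CPM with NAC and 153 ± 12.8 CPM in control (-0.36 ± 0.09, adjusted p = 0.0278). The call of Skp2 ended without control 1, control 2, NAC 2, NAC 3, NAC 4 or NAC 5 (range 0.0655 to 0.0901), with library size alone (0.0533) and with upper quartile factors (0.066), and that of Cul1 without NAC 2, control 1 or control 2 (0.0602 to 0.0708). In libraries 1 and 2 Skp2 was at -0.66 and Cul1 at -0.62, and in libraries 3 to 5 Skp2 was at -0.38 and Cul1 at -0.19, each of them called. No gene of this list was called higher over all libraries by limma-voom or by edgeR without a block or set term. At an unadjusted p under 0.05, 2 were higher, and DESeq2 called 1. With the block Ccnh, the cyclin of the CDK-activating kinase, was called higher (0.43, adjusted p = 0.0346), as it was for libraries 1 and 2 (0.69, adjusted p = 1.7e-05) and for libraries 3 to 5 (0.25, adjusted p = 0.0155). The set term in edgeR called Ccnh (0.42, adjusted p = 0.00444) and Mnat1 (0.28, 0.0153) higher, where 36.4% of all tested genes were called.

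Over all libraries 0 of 9 quiescence factors passed by limma-voom, or by edgeR without a block or set term, in either direction. Their median log2 change was -0.04. At an unadjusted p under 0.05, 1 was higher and 1 lower, and DESeq2 called 1 lower, Slfn2. The block called 1 higher, Btg2 (0.47, adjusted p = 0.0119). The set term in edgeR called Btg2 (0.47, adjusted p = 0.000654) and Klf2 (0.69, 0.0173) higher. It called Slfn2 (-0.58, 0.0168) and Foxp1 (-0.31, 0.0486) lower, where 36.4% of all tested genes were called. The 2 most abundant were Btg1, at 311 ± 91.4 CPM with NAC and 328 ± 20.4 CPM in control (adjusted p = 0.805), and Slfn2, at 269 ± 78.7 CPM with NAC and 391 ± 20.3 CPM in control (adjusted p = 0.0875). Btg1, an antiproliferative gene, fell in libraries 1 and 2 (log2 change -0.65, adjusted p = 2.2e-05) and rose in libraries 3 to 5 (0.21, adjusted p = 0.0317). Slfn2 fell in libraries 1 and 2 (-1.12, adjusted p = 1.7e-05) and did not pass in libraries 3 to 5 (-0.23, adjusted p = 0.137). By set, 1 quiescence factor rose and 4 fell in libraries 1 and 2, beside 32.2% of all tested genes higher and 28.3% lower. In libraries 3 to 5, 3 rose and 0 fell, beside 15% of all tested genes higher and 14% lower. There 0 were lower at an unadjusted p under 0.05. Of 10 genes of mitogenic signalling 1 fell, the interleukin 2 receptor gene Il2ra (log2 change -0.65, adjusted p = 0.00693). Of all tested genes 4.88% were called lower, and the list median was -0.21. Il2ra itself was at -0.97 for libraries 1 and 2 and -0.46 for libraries 3 to 5; the block added Stat5a (-0.38, adjusted p = 0.0137), an effector of that receptor.

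Of 27 E2F target genes of S phase 5 fell, beside 4.88% of all tested genes called lower, and 22 did not pass, with a median log2 change of -0.18. Tyms, thymidylate synthase, was at 68.8 ± 4.53 CPM with NAC and 119 ± 8.7 CPM in control (log2 change -0.79 ± 0.08, adjusted p = 0.000751), and Cdc6, which loads the replicative helicase, at 80.7 ± 5.7 CPM with NAC and 104 ± 5.22 CPM in control (-0.36 ± 0.08, adjusted p = 0.0158). The block called 9 of the 27 lower (8.22% of all tested genes) and DESeq2 called 10 (9.16%). For libraries 1 and 2 Tyms was at -0.88 and Cdc6 at -0.53, and for libraries 3 to 5 Tyms was at -0.73 and Cdc6 at -0.25, on the log2 scale. No E2F target gene was called higher over all libraries by DESeq2, limma-voom or edgeR without a set term, and 1 was higher at an unadjusted p under 0.05. Of 20 genes of G2 and mitosis 0 passed over all libraries by DESeq2, limma-voom or edgeR without a set term. At an unadjusted p under 0.05, 1 was lower, and their median log2 change was -0.02. The 2 most abundant were Top2a (1040 ± 78.7 CPM with NAC and 1180 ± 63.1 CPM in control, adjusted p = 0.152) and Mki67 (758 ± 131 CPM with NAC and 893 ± 119 CPM in control, adjusted p = 0.251). With the library set as a term in edgeR, Top2a (-0.18, adjusted p = 0.0349) and Mki67 (-0.23, 0.0468) were called lower. That fit called 36.4% of all tested genes.

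The G2 and mitosis genes had medians of opposite sign in the library sets. In libraries 1 and 2, 10 of the 20 rose and 0 fell (2 lower at an unadjusted p under 0.05), with a median of 0.18, beside 32.2% of all tested genes called higher. In libraries 3 to 5, 10 fell and 0 rose (0 higher at an unadjusted p under 0.05), all 20 had a log2 change below 0 and the median was -0.20, beside 14% of all tested genes called lower. The difference of the NAC effect between the sets was called for 11 of the 20, beside 41.9% of all tested genes. The E2F target genes had 5 higher and 8 lower in libraries 1 and 2, beside 32.2% and 28.3% of all tested genes. Of the 27, 16 were lower in libraries 3 to 5, beside 14% of all tested genes. The G1 members had medians of -0.15 in libraries 1 and 2 and -0.19 in libraries 3 to 5.

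**Figure D4:**
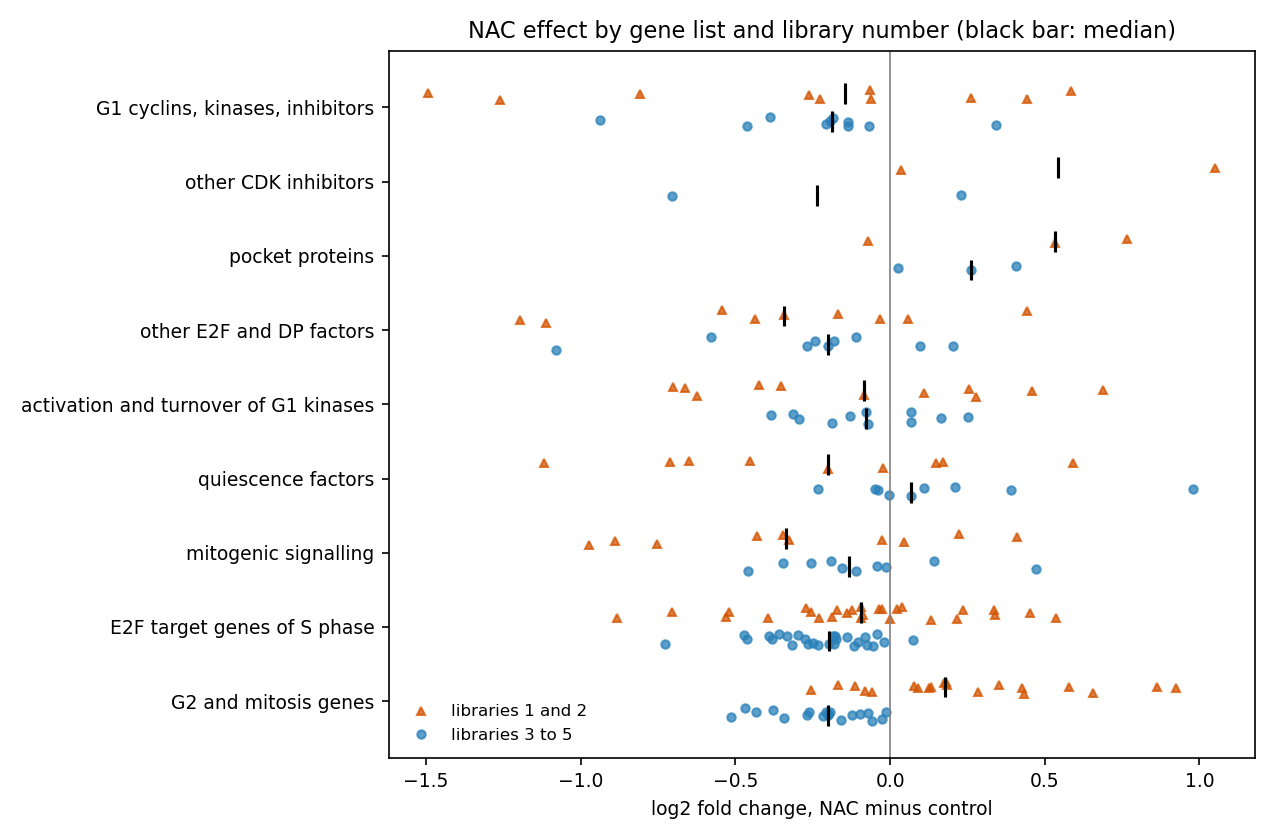
Log2 fold change, NAC minus control, of each tested gene of the G1 members and of 8 other cell cycle lists, in libraries 1 and 2 (orange triangles) and libraries 3 to 5 (blue circles); black bars are medians. The G2 and mitosis genes have a median of 0.18 in libraries 1 and 2 and -0.20 in libraries 3 to 5.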

How the data were processed

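Gene expression was measured by RNA sequencing in 10 libraries of 2 groups of 5; group and library number come from the labels. The deposited table holds read counts and FPKM values, per the file headers. Read counts entered the tests unchanged. The authors' FPKM values equal count over gene length and library total, and were used only to compare levels between genes. Aligner and counter: not given in the sources used here; per the submitters' processing notes the builds are GRCm38 and mm10. None of the 10 genes starts at the position of the GRCm38 RefSeq entry it was compared with, so the table's positions are not printed. Whether the build or only the annotation differs was not tested. Exon lengths match GENCODE M21 for 10 of 10 genes, and shared exon bases come from it; strand use in counting is not stated.

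Tests ran under edgeR 4.0.16 and R 4.3.3 (glmQLFit, robust; filterByExpr; TMM), 2-sided, with Benjamini-Hochberg adjustment over 11403 genes; all 10 members passed the filter. SE is the log2 change over the root of F. CPM values are TMM-normalized; log2 CPM used a prior count of 2. The fits were tested on simulated data. Alternatives were other scalings, filters, DESeq2 1.42.0, limma-voom (limma 3.58.1), a replicate block, a term for the library set and each library left out. Same-number libraries of the groups deviated together (r 0.48 to 0.60 across genes, each above 0.1), which is why the block is given; the best match was the own number for 3 of 10 libraries, other numbers of the same set gave 0.47 to 0.58, and between sets r was -0.57 to -0.45. Named genes were all members, and up to 2 rising and 2 falling called genes of each other list (or its 2 most abundant). The 3 closest patterns of the 3 members with the smallest p were named too. E2f2, E2f3, Cdc25a, Rb1, Cdkn1a, Ccnh, Mnat1, Btg2, Klf2, Foxp1, Stat5a and Myc were named beyond the rule. Members, sets and the 8 other lists were chosen with earlier results of these data known.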

Additional observations from a re-analysis of the deposited data

Results flagged for a closer look

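The NAC effect differed between libraries 1 and 2 and libraries 3 to 5 by an interaction test in edgeR for 5 of the 10 genes, beside 41.9% of all tested genes. The log2 effect in libraries 1 and 2 minus that in libraries 3 to 5 was -0.80 for Ccnd2, 0.47 for Ccnd3, -0.55 for Ccne2, -0.62 for Cdk6 and 0.77 for Cdkn2c. Ccnd2, Ccne2 and Cdk6 had log2 changes below 0 in each set, further from 0 in libraries 1 and 2; that of Cdk6 in libraries 3 to 5 did not pass (adjusted p = 0.0737) but did when these were fitted alone (7.8e-05). Ccnd3 and Cdkn2c were higher with NAC in libraries 1 and 2, and had log2 changes of -0.21 and -0.19 in libraries 3 to 5. What sets libraries 1 and 2 apart was not tested.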

How the results depend on the processing

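Over all libraries Ccne2 stayed called in all 20 alternatives, and Ccnd2 kept its direction in all 20. Over all libraries the number of called genes was 1319, but 2287 with DESeq2's Wald test, 2254 with the replicate block and 4155 with the library set as a term, and 631 to 1405 with a library left out (696 without NAC 2, 657, 631, 824, 866 and 857 without control 1 to 5). Called members were 2, but 1 without a filter, 5 with the set term and 1 to 3 with a library left out. The block changed no member's call, and ended those of Cdkn2d and Rbl2 among the named genes. Members called in libraries 1 and 2 were 7, but 4 when fitted alone. Those in libraries 3 to 5 were 5, but 9 when fitted alone and 3 to 9 with a library left out; all genes called there were 3312, but 5557 when fitted alone and 2189 to 5373 with a library left out (5373 and 5363 without NAC 1 and NAC 2, 2189 and 2206 without control 4 and control 5). Signs turned only for values that had not passed. Ccnd3 over all libraries was -0.019 with limma-voom, -0.017 with the block and -0.016 with the set term, and -0.14 to 0.20 with a library left out. With a library left out Cdkn2c ran from -0.12 to 0.15, Btg1 from -0.17 to 0.034, Ccne1 in libraries 1 and 2 from -0.23 to 0.090, and the difference between sets from -0.29 to 0.034 for Cdk4 and from -0.22 to 0.37 for Cdkn1b. Upper quartile factors gave 0.041 for Ccne1 and 0.041 for Cdk2 in libraries 1 and 2, where they moved the median of all genes by 0.10. Of the calls over all libraries 57.8% were higher, against 69.0% with library size alone and 74.9% with upper quartile factors. The causes were not tested. At a depth of 13.3 to 17.71 M reads Ccnd1 and 3 inhibitor genes lay below the filter. These genes had at most 0.913 CPM in any library.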
